A study of Mus musculus with 6 samples.

Results

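Of the 6 islet RNA libraries in the series, 2 held little insulin mRNA: WT replicate 1 and KO replicate 2. They were chosen by their measured level of Ins1, under a threshold of 10000 FPKM, where FPKM is the number of sequenced fragments scaled to transcript length and library size, and are called insulin-poor here. The other 4, WT replicate 2, KO replicate 1 and both KO+DNMT3A libraries, are called insulin-rich. The library just inside the threshold was WT replicate 1, with 647 FPKM of Ins1, and the one just outside it KO+DNMT3A replicate 1, with 65360 FPKM. The classes were made from the data and cut across the genotypes, so differences between them are described by library and not tested. Ins2, Iapp and Ucn3, the other beta cell products that mark the classes, split the libraries in the same way.

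The series holds bulk poly-A RNA sequencing of islets isolated from C57BL/6 mice aged 8 weeks, with 2 libraries in each of 3 groups. WT is wild type. KO is βRapKO, in which Rptor, the gene of the mTORC1 subunit Raptor, was deleted in beta cells. KO+DNMT3A is βRapKO with the DNA methyltransferase gene Dnmt3a added by lentivirus. The WT and KO columns carry GFP in their deposited names with no explanation in the labels, and the promoter driving the deletion is not given. Whether the replicates of a genotype are different animals is not stated, so p-values of the labelled comparisons reflect variation among these libraries, possibly technical.

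An islet is a cluster of endocrine cells: beta cells secrete insulin, alpha cells glucagon, delta cells somatostatin and PP cells pancreatic polypeptide, beside duct remnants, stroma, vessels, nerves and macrophages. A mature beta cell devotes much of its mRNA to Ins1 and Ins2, keeps a large endoplasmic reticulum to fold the precursor, and packs the hormone into dense-core granules shared in design with the other endocrine cells. Its gene program depends on transcription factors such as Pdx1, Nkx6-1 and Neurod1, which act at promoters like that of insulin. In bulk RNA, fewer cells of a type and less RNA per cell cannot be told apart.

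The bases just upstream of the start sites of 3 genes that marked the classes, and of the glucagon gene, whose level did not follow them, are shown for context. They are the 250 bases before each start in RefSeq on GRCm38.p6, 5′ to 3′, and capitals mark CATCTG or its reverse complement CAGATG, a form of the E-box bound by basic helix-loop-helix factors such as Neurod1.
Ins1 (chr19:52264047-52264296, plus strand): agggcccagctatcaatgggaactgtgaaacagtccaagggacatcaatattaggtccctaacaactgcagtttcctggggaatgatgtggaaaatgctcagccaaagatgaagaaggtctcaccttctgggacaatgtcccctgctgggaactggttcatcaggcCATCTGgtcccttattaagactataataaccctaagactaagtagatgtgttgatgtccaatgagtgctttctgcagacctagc
Iapp (chr6:142298175-142298424, plus strand): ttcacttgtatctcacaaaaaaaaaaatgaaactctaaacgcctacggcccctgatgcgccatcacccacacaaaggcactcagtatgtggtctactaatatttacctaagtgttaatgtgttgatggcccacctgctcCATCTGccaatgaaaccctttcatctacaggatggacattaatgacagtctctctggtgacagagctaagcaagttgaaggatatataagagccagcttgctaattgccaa
Ucn3 (chr13:3945350-3945599, minus strand): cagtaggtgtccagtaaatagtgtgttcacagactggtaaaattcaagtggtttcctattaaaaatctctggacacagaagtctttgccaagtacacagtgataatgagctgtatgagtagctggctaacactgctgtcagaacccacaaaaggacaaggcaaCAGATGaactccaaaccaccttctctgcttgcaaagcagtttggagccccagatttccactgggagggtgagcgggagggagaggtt
Gcg (chr2:62483654-62483903, minus strand): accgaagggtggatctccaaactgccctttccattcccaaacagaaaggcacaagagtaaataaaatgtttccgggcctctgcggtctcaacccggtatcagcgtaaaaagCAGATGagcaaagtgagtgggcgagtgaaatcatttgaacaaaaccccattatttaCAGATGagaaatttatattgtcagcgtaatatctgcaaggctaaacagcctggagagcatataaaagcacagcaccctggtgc
The hexamer occurred 1 time each in the Ins1, Iapp and Ucn3 windows and 2 times in the Gcg window, so its presence did not separate them. It was in 9.72% of the windows of all genes kept and in 10.2% of those of genes lower in both insulin-poor libraries, and 14.4% of all windows in the table held it. A match describes letters only.

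The depth of the libraries moved with the split. Steps between the values of genes with 1 transcript implied 244521 fragments in WT replicate 1 and 780207 in KO replicate 2, against 973547 to 1919659 in the insulin-rich libraries, so the insulin-poor libraries were also the 2 shallowest. On a transcript of 2 kb, 1 fragment was worth 2.04 and 0.641 FPKM in these libraries and 0.260 to 0.514 FPKM in the others. Of the 13233 genes that reached 1 FPKM in at least 2 libraries, 3526 were listed at 0 in WT replicate 1 and 1248 in KO replicate 2, against 393 to 675 elsewhere. A value of 0 need not mean no transcript: Rpl23a, a ribosomal protein gene that every cell uses, was listed at 0 in all libraries but KO replicate 1. Rptor, read as a check of the labels, ranged from 0.38 FPKM in KO replicate 1 to 1.93 FPKM in KO+DNMT3A replicate 2. KO replicate 2, at 1.51 FPKM, stood above WT replicates 1 and 2, at 0.80 and 1.06 FPKM. These 3 values correspond to about 7.7, 1.3 and 6.8 fragments on its longest transcript, and that of KO replicate 1 to about 3.6. The order of the libraries thus rests on few fragments. Dnmt3a was 3.62 and 3.80 FPKM in the KO+DNMT3A libraries, between the WT values of 2.94 and 4.43 FPKM, so its level does not show the addition. A gene-level value over all exons and all islet cells need not show a deletion limited to beta cells.

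The makeup of the RNA also differed. Ins1 and Ins2 together made up 0.170% of the summed FPKM in WT replicate 1 and 0.109% in KO replicate 2, and 16.5% to 30.5% in the insulin-rich libraries. The 13 mitochondrially encoded mRNAs took 44.8% and 50.9%, against 16.5% to 26.5%. The transcripts Gm42418, Gm26917 and Lars2, which overlap or resemble ribosomal RNA sequence, took 15.3% and 8.10%, against 2.15% to 4.06%. All other genes shared 39.7% and 40.9% of the total in the insulin-poor libraries and 46.9% to 53.2% in the insulin-rich ones. Because FPKM is relative to the total, these shares bear on every other gene. The part of depth, mitochondrial share and rRNA-associated share in the gene differences below was not tested.

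**Figure D1:**
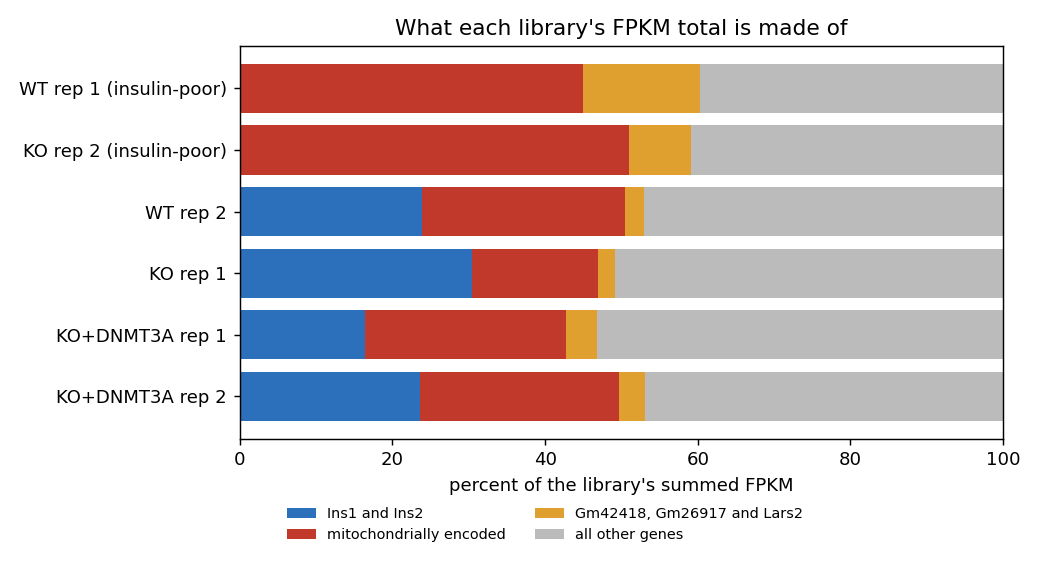
Percent of each library's summed FPKM (horizontal axis) taken by Ins1 and Ins2, by mitochondrially encoded genes, by Gm42418, Gm26917 and Lars2, and by all other genes, 1 bar per library. The insulin segment is 0.170% and 0.109% wide in the upper 2 bars, which are the insulin-poor libraries, and at least 16.5% in the other 4.

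A gene was counted as lower when both insulin-poor libraries lay below all 4 insulin-rich ones, and as higher in the opposite case. By this count 3293 of 13233 genes (24.9%) were lower and 854 (6.45%) were higher. With a gap of at least 1 on the log2(FPKM + 1) scale between the nearest libraries, 549 (4.15%) were lower and 38 (0.287%) higher. Counts of lower and higher genes depended on scaling: 2061 lower and 1843 higher after each library was set to the same median, and 1719 and 1850 after quantile normalization. Of the 2061 and 1719 lower genes under these scalings, all 2061 and all 1719 were also among the 3293. The median difference over all genes was -0.34 on the log2 scale with the deposited FPKM, -0.07 after median scaling and 0.06 after quantile normalization, and list medians below are read beside it. With 1 insulin-poor library left, fewer values decide a call: 5003 genes were lower and 2157 higher without WT replicate 1, and 5788 and 2593 without KO replicate 2. Of the 3293 lower genes, 1239 were listed at 0 in WT replicate 1 and 450 in KO replicate 2.

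Ins1, Ins2 and Iapp were 3 of the 4 genes with the widest gap, among protein-coding genes with a mean of at least 5 FPKM. On mm10, GENCODE places Ins1 (ENSMUSG00000035804) on chromosome 19 at 52264297 to 52265476, Iapp on chromosome 6 at 142298423 to 142303961, and Ucn3 on chromosome 13 at 3940688 to 3945349. In the insulin-poor WT replicate 1 and KO replicate 2, Ins1 was 647 and 416 FPKM, against 100772, 119077, 65360 and 100107 FPKM for the insulin-rich WT replicate 2, KO replicate 1 and KO+DNMT3A replicates 1 and 2. All genes below are given in this order. Ins2, the other mouse insulin gene, was 332 and 277 FPKM against 31040, 43715, 19193 and 29082 FPKM. Iapp, which encodes amylin, was 512 and 841 FPKM against 33611, 54683, 39508 and 22492 FPKM. The nearest libraries of the classes differed 101-fold for Ins1, 57.9-fold for Ins2 and 26.7-fold for Iapp in FPKM. Ins1 in WT replicate 1 still rested on about 168 fragments. Ucn3, a peptide of mature beta cells, was 5.53 and 20.8 FPKM against 337, 205, 189 and 119 FPKM, and its value in WT replicate 1 corresponds to 2.0 fragments on its longest transcript. Insulin mRNA was thus present in both insulin-poor libraries, at a small part of the level elsewhere.

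Genes of the beta cell's glucose response were mostly lower. Of 26 listed genes, all measured, 18 were lower and 0 higher, and 11 had a gap of at least 1, beside 24.9% and 4.15% of all genes. The list's median difference was -1.75 on the log2 scale. Ero1lb, an oxidase of the beta cell endoplasmic reticulum that forms disulfide bonds in proinsulin, was 3.86 and 7.86 FPKM against 231, 231, 205 and 150 FPKM. G6pc2, an islet glucose-6-phosphatase that sets the glucose threshold of secretion, was 5.76 and 6.78 FPKM against 231, 271, 131 and 100 FPKM. Papss2, which makes the sulfate donor PAPS, was 3.37 and 8.46 FPKM against 68.7, 76.2, 72.9 and 61.3 FPKM. For these 3 genes the 4 insulin-rich libraries lay far above the other 2, and for Ero1lb and Papss2 those 4 also lay close together.

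Receptors and channels of the same list included genes listed at 0. The incretin receptor gene Glp1r was listed at 0 in both insulin-poor libraries and was 20.8, 15.6, 29.6 and 7.26 FPKM in the others. The glucose transporter gene Slc2a2 was 0 and 0.719 FPKM against 20.7, 10.8, 6.72 and 8.03 FPKM. The prolactin receptor gene Prlr was 0.361 and 1.70 FPKM against 22.3, 23.3, 17.9 and 20.5 FPKM. Kcnk16, a background potassium channel gene, was 0 and 18.9 FPKM against 106, 141, 128 and 50.9 FPKM. The 2 subunits of the ATP-sensitive potassium channel behaved differently from each other: Abcc8 was 52.8 and 96.0 FPKM against 149, 122, 131 and 221 FPKM, while Kcnj11 was 6.97 and 7.65 FPKM against 6.13, 12.0, 12.4 and 8.39 FPKM and overlapped. No gene of this list was higher in the deposited FPKM, while 2 were counted as higher after median scaling and after quantile normalization. Under these scalings 1843 and 1850 of all 13233 genes were higher.

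Genes of the endocrine granule, which other islet cells use too, were also mostly lower. Of 24 listed genes, 16 were lower and 0 higher, 9 of them with a gap of at least 1, beside 24.9% lower and 4.15% with the gap among all genes. The median difference was -1.77, and -1.15 without WT replicate 1. Chga, which encodes the granule matrix protein chromogranin A, was 239 and 279 FPKM against 3590, 3094, 2953 and 2501 FPKM, an 8.96-fold difference between the nearest libraries. Chgb, the related chromogranin B, was 71.6 and 166 FPKM against 1208, 2626, 4083 and 1556 FPKM. Scg2, another granin, was 9.30 and 37.4 FPKM against 425, 735, 749 and 182 FPKM. The 2 prohormone convertases were both lower: Pcsk1 was 0 and 1.75 FPKM against 79.2, 101, 133 and 30.1 FPKM, and Pcsk2, which alpha cells use to make glucagon, was 39.8 and 98.6 FPKM against 345, 535, 361 and 356 FPKM. Pcsk1n, an inhibitor of Pcsk1, was 846 and 1309 FPKM against 1676, 1161, 867 and 3282 FPKM and overlapped. Members of the fusion machinery stood closer: Stx1a and Unc13a overlapped, and Vamp2 was 10.7 and 10.6 FPKM against 24.4, 29.1, 31.2 and 17.0 FPKM.

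The transcription factors of the beta cell were lower by less than its products. Of 19 listed, 17 were measured, since Foxa1 and Esrrg stayed under the filter, and 10 were lower and 0 higher, beside 24.9% and 6.45% of all genes. The median difference was -1.23, and -0.75 without WT replicate 1. A gap of at least 1 was seen for 2 of them, Pdx1 and Mlxipl. Pdx1, which binds the insulin promoter and is needed for beta cell identity, was 17.0 and 27.9 FPKM against 98.0, 76.0, 71.2 and 111 FPKM. Mlxipl, the glucose-responsive factor ChREBP, was 9.63 and 21.3 FPKM against 71.2, 47.5, 43.6 and 124 FPKM. Neurod1 was 47.9 and 67.1 FPKM against 123, 169, 205 and 179 FPKM, and Nkx6-1 was 43.0 and 49.4 FPKM against 151, 90.1, 66.2 and 160 FPKM. Between the nearest libraries Nkx6-1 differed 1.34-fold and Pdx1 2.55-fold, beside 101-fold for Ins1. Mafa, a late activator of the insulin genes, was listed at 0 in both insulin-poor libraries but reached at most 2.85 FPKM elsewhere.

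The other 7 measured factors overlapped between the classes. Pax6 was 11.0 and 13.8 FPKM against 21.1, 11.8, 11.5 and 20.6 FPKM. Isl1 was 9.85 and 32.6 FPKM against 33.5, 36.6, 39.6 and 25.9 FPKM. Among the others were Nkx2-2, Foxa2, Myt1 and Glis3. Insm1 and Rfx6, which like Pax6 and Isl1 act in several endocrine cell types, were lower, Insm1 at 1.32 and 4.96 FPKM against 14.9, 17.4, 10.6 and 17.3 FPKM. In KO replicate 2, Isl1, Nkx2-2 and Foxa2 stood within the insulin-rich range, and in WT replicate 1 they were below it.

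**Figure D2:**
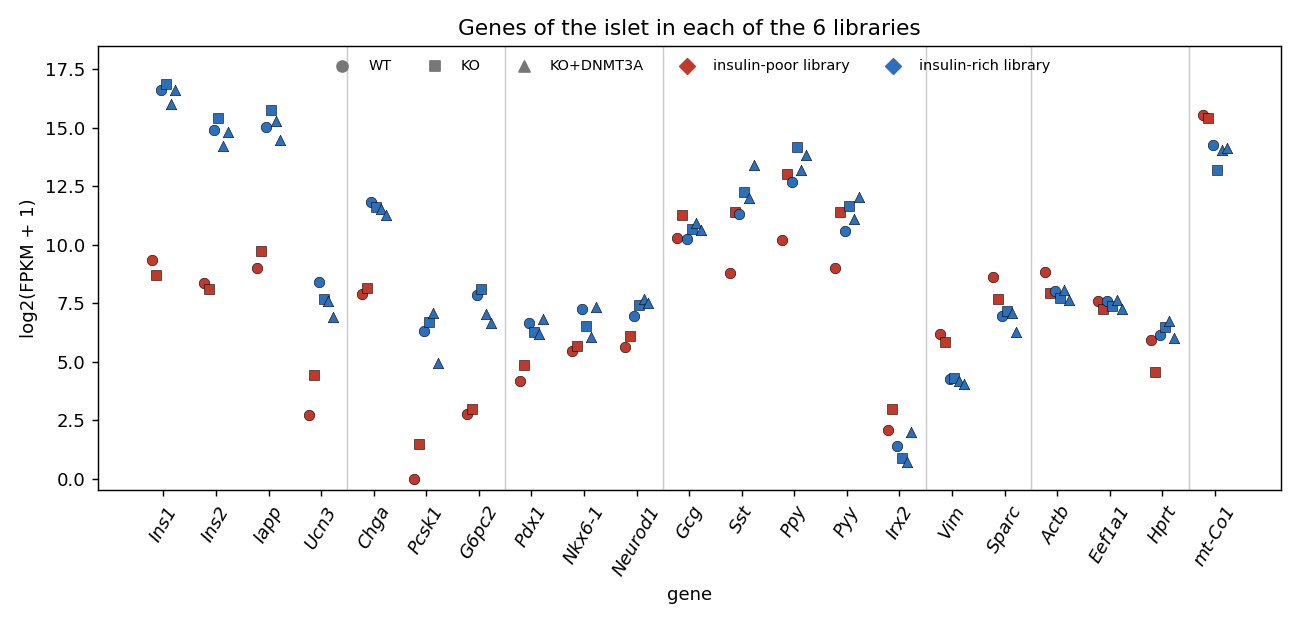
log2(FPKM + 1) of islet genes (horizontal axis) in each of the 6 libraries; symbols give the genotype and colour the class. Ins1, Ins2, Iapp and Chga show a wide gap between classes, Nkx6-1 a narrow one, and the points of Gcg, Sst, Ppy and Pyy overlap.

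The hormones of other islet cells overlapped between the classes. Of 5 listed genes, 0 were lower and 0 higher, beside 24.9% and 6.45% of all genes. Within the genotypes, 4 of the 5 were lower in the insulin-poor library of both WT and KO, as were 40.7% of all genes. Gcg, the glucagon gene, was 1245 and 2454 FPKM against 1197, 1623, 1932 and 1592 FPKM, so KO replicate 2 had the highest value of all libraries. Sst, the somatostatin gene, was 443 and 2736 FPKM against 2560, 4873, 4036 and 10846 FPKM. Ppy, pancreatic polypeptide, was 1178 and 8399 FPKM against 6511, 18361, 9269 and 14437 FPKM. Pyy, peptide YY, was 512 and 2712 FPKM against 1553, 3191, 2223 and 4196 FPKM. For Sst, Ppy and Pyy, WT replicate 1 was the lowest library while KO replicate 2 lay within the insulin-rich range. The median of the 5 hormones was -1.15 over both libraries and 0.06 without WT replicate 1, so WT replicate 1 decided it.

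Regulators of the alpha cell were more often higher than lower. Of 8 listed alpha cell genes, 3 were higher and 1 lower, beside 6.45% and 24.9% of all genes, and the median difference was 0.68. Irx2, a homeobox factor of alpha cells, was 3.22 and 6.82 FPKM against 1.62, 0.829, 0.616 and 2.997 FPKM, and Pou3f4 was 1.40 and 1.75 FPKM against 0.356 to 0.719 FPKM. Both values rest on few fragments in WT replicate 1. Ttr, the abundant carrier transthyretin, was the lower member, with 23.5 and 77.8 FPKM against 305, 360, 124 and 189 FPKM. Restricted to genes of 5 FPKM or more the list's median was -0.82, since the low-level factors drop out. Of the 3 measured delta cell genes, 1 was lower, beside 24.9% of all genes, and Hhex and Rbp4 overlapped.

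Genes that fold and move proteins through the endoplasmic reticulum followed insulin. Of 24 listed genes, 19 were lower and 0 higher, 8 with a gap of at least 1, beside 24.9% lower and 4.15% with the gap among all genes. The median difference was -1.55, against -0.34 for all genes. Under the 3 other scalings 15 to 19 were lower and 0 higher, beside 1719 to 2948 lower among 13215 to 13233 genes. Dnajb9, a co-chaperone induced by the unfolded protein response, was 17.5 and 17.2 FPKM against 107, 287, 148 and 71.0 FPKM. Sdf2l1, a component of the chaperone complex around BiP, was 22.1 and 26.6 FPKM against 291, 287, 104 and 121 FPKM. Manf, a secreted factor of the same response, was 12.3 and 13.4 FPKM against 69.1, 94.9, 49.1 and 51.7 FPKM. Dnajc3, a further co-chaperone, was 22.8 and 25.7 FPKM against 70.0, 105, 79.8 and 55.7 FPKM. The 2 insulin-poor libraries had nearly equal levels of these 4 genes.

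Some genes of protein translocation were lower and some overlapped. Sec61b, a subunit of the translocon, was 22.2 and 22.3 FPKM against 75.9, 110, 59.5 and 68.1 FPKM, and the signal peptidase subunit Sec11c was 13.0 and 7.89 FPKM against 49.7, 64.3, 40.4 and 30.03 FPKM. Hspa5, the chaperone BiP itself, was 71.1 and 41.8 FPKM against 117, 130, 91.0 and 56.9 FPKM and overlapped. Canx, Xbp1, Ssr3 and Spcs1 overlapped too. Of genes of the integrated stress response and p53, 4 of 14 were lower and 1 higher, near the 24.9% and 6.45% of all genes, with a median of 0.01: Atf4 was 82.9 and 66.1 FPKM against 127, 147, 91.2 and 100 FPKM, while its target Ddit3 was 72.8 and 114 FPKM against 91.0, 18.3, 17.9 and 31.5 FPKM and overlapped.

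**Figure D3:**
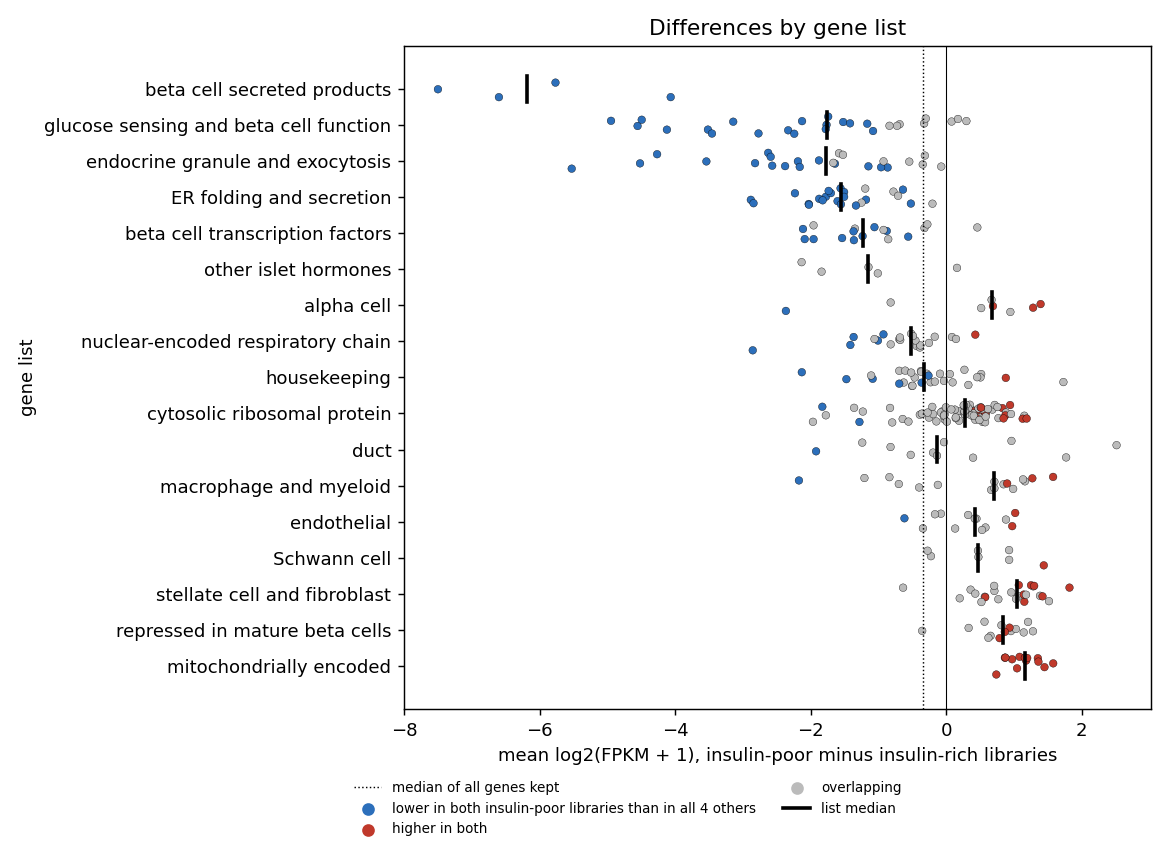
Difference of mean log2(FPKM + 1), insulin-poor minus insulin-rich libraries, for each member of the gene lists (rows); colours mark members that did not overlap between the classes, black bars the list medians and the dotted line the median of all genes at -0.34. The glucose sensing, granule and endoplasmic reticulum lists centre near -1.75, -1.77 and -1.55, and the stellate cell list near 1.05.

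Stromal genes lay on the opposite side, unevenly between the 2 insulin-poor libraries. Of 24 genes of stellate cells and fibroblasts, the collagen-making cells around islets, 8 were higher and 0 lower, beside 6.45% and 24.9% of all genes, and the median difference was 1.05. Vim, the intermediate filament vimentin, was 71.7 and 56.8 FPKM against 18.3, 18.8, 17.3 and 15.2 FPKM, a 3.02-fold difference between the nearest libraries. Sparc, a collagen-binding matrix protein, was 397 and 204 FPKM against 121, 140, 134 and 76.7 FPKM. Fstl1, a secreted glycoprotein of mesenchyme, was 111 and 51.4 FPKM against 23.8, 35.9, 37.0 and 18.2 FPKM. Bgn, Col6a1, Fn1, Fbn1 and Pdgfrb were the other higher members. Summed over the list, WT replicate 1 held 2050 FPKM and KO replicate 2 held 861 FPKM, with 359 to 710 FPKM in the insulin-rich libraries.

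Among further matrix genes, Col1a1 and Dcn were highest in WT replicate 1 and overlapped between the classes. Col1a1, a fibrillar collagen, was 474 and 136 FPKM against 94.9, 90.6, 163 and 82.1 FPKM, and Dcn, the collagen-binding proteoglycan decorin, was 194 and 19.1 FPKM against 24.1, 22.9, 83.0 and 16.3 FPKM. The list's median difference was 0.41 without WT replicate 1 and 1.74 without KO replicate 2. In the latter case 19 of 24 genes were above all insulin-rich libraries, beside 2593 of all 13233 genes.

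Duct genes separated the 2 insulin-poor libraries from each other. In sum, WT replicate 1 held 2878 FPKM of them and KO replicate 2 held 343 FPKM, with 432 to 1672 FPKM in the insulin-rich libraries. Spp1, osteopontin, was 1510 and 48.9 FPKM against 111, 102, 453 and 73.8 FPKM. Mmp7, a protease of duct epithelium, was 639 and 3.60 FPKM against 4.81, 2.63, 87.3 and 3.35 FPKM. Krt19, the duct keratin, was 64.8 and 1.10 FPKM against 4.4, 2.7, 94.6 and 2.30 FPKM. WT replicate 1 and the insulin-rich KO+DNMT3A replicate 1 had the 2 highest sums, and all 6 libraries held duct transcripts. Of 11 measured duct genes 1 was lower and 0 were higher, beside 24.9% and 6.45% of all genes. The list's median was -0.13, -1.10 without WT replicate 1 and 0.71 without KO replicate 2, and it was 0.26 after median scaling and 0.21 after quantile normalization.

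Markers of the remaining cell types showed no common order either. The 17 listed endothelial genes summed to 105 and 43.2 FPKM against 38.2 to 83.9 FPKM. Of the 13 measured, 2 were higher, Kdr and Eng, and 1 lower, Cdh5, beside 6.45% and 24.9% of all genes. Their median was 0.42 and turned to -0.42 without WT replicate 1. The 19 listed macrophage genes summed to 687 and 371 FPKM against 194 to 610 FPKM. Of the 16 measured, Csf1r, Aif1 and Laptm5 were higher and H2-Ab1 lower, beside the same shares. The complement gene C1qa was 55.0 and 32.0 FPKM against 77.0, 146, 63.1 and 46.5 FPKM and overlapped. The list's median of 0.71 became -0.05 when only the WT and KO libraries were read. Schwann cell genes were high in KO replicate 2, with a summed level of 97.5 FPKM, against 21.9 FPKM in WT replicate 1 and 16.3 to 37.2 FPKM elsewhere. Ngfr, a receptor of glia, was 5.93 and 51.7 FPKM against 22.9, 10.4, 11.0 and 2.08 FPKM. Without KO replicate 2 the list's median difference turned from 0.48 to -0.53.

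Markers of exocrine cells and blood were listed at or near 0 in both classes, which does not show their absence, since a 0 in this table can also be a failed estimate. The acinar genes summed to 0 and 14.4 FPKM in the insulin-poor libraries and 14.8 to 18.9 FPKM in the others, and 18 of 21 stayed under the filter. The 5 globin and red cell genes were listed at 0 in all 6 libraries. The part of other cell types in the beta cell gene differences was not tested.

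Housekeeping genes were not uniform across the split. Of 31 listed, 30 were measured, and 6 were lower and 1 higher (20% and 3.33%), near the 24.9% and 6.45% of all genes. The summed level was 2915 and 2419 FPKM against 2041 to 2723 FPKM. Actb, beta-actin, was 455 and 243 FPKM against 260, 211, 266 and 199 FPKM and overlapped, and Eef1a1, a translation elongation factor, was 192 and 153 FPKM against 193, 166, 195 and 150 FPKM and overlapped. B2m, Tbp and Polr2a overlapped as well, and Ppia stayed under the filter. Gapdh, which has many near-identical pseudogenes and is therefore uncertain here, was between 0.743 and 3.79 FPKM in every library. Hprt, a purine salvage enzyme, was 60.2 and 22.9 FPKM against 69.3, 87.0, 106 and 63.9 FPKM. Pgk1, Rab7 and Chmp2a were lower too, and Hsp90ab1 was the higher member, at 232 and 287 FPKM against 149, 107, 126 and 188 FPKM. The list's median of -0.32 became 0.05 after median scaling, with 2 lower and 5 higher. It was 0.02 after quantile normalization, with 2 lower and 4 higher. Of all 13233 genes, 2061 were lower and 1843 higher under the first scaling, and 1719 and 1850 under the second.

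All 13 mitochondrially encoded genes were higher, beside 6.45% of all genes, with a median difference of 1.16. mt-Co1, a core subunit of cytochrome oxidase, was 47483 and 44290 FPKM against 19467, 9253, 17089 and 17938 FPKM, and mt-Atp6, of the ATP synthase, was 32379 and 46345 FPKM against 15593, 10647, 15927 and 15191 FPKM. After quantile normalization 9 of 13 were higher, beside 1850 of all 13233 genes. Of 21 nuclear genes of the same respiratory chain, 5 were lower and 1 higher, near the shares of all genes (24.9% and 6.45%). Their median was -0.52, -0.91 without WT replicate 1 and -0.23 without KO replicate 2. Ndufa1, a complex I subunit, was 29.3 and 36.7 FPKM against 321, 367, 188 and 158 FPKM, and Cox5a, of cytochrome oxidase, was 148 and 39.0 FPKM against 89.3, 93.5, 113 and 23.3 FPKM and overlapped. Among nuclear RNAs, Malat1 was 2036 and 2845 FPKM against 920, 473, 767 and 1698 FPKM, while Neat1 and Meg3 overlapped. Of 75 measured ribosomal protein genes, many of which have near-identical pseudogenes, 11 were higher and 2 lower, beside 6.45% and 24.9% of all genes. Their median was 0.28. After median scaling 28 were higher and 1 lower, beside 1843 higher and 2061 lower of all 13233 genes.

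The genes with the widest gaps across the whole table included several outside the lists. Of the 15 protein-coding genes with the widest gap below, at a mean of at least 5 FPKM, 5 are list members: Ins1, Ins2, Iapp, Ero1lb and G6pc2. Prss53, a serine protease, was 3.36 and 2.11 FPKM against 231, 172, 153 and 109 FPKM. Pdyn, the opioid precursor prodynorphin, was 2.56 and 1.20 FPKM against 92.9, 239, 183 and 85.7 FPKM. Dapl1, Fkbp1b, Fam151a, Cfb, Tmed6, Gm4791 and Lmo1 were listed at 0 in both insulin-poor libraries, and Dapl1 was 173, 131, 64.3 and 155 FPKM in the others. Car15 completed the set, at 0 and 7.99 FPKM against 155, 327, 324 and 145 FPKM.

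At the opposite end the gaps were narrower. Vim, Aebp1 and Mmp14 are genes of matrix-making cells: Aebp1, a collagen-binding protein, was 35.8 and 31.9 FPKM against 9.91, 6.61, 14.6 and 7.23 FPKM, and Mmp14, a membrane collagenase, was 29 and 28 FPKM against 9.78, 12.8, 14.1 and 8.68 FPKM. Srsf11, a splicing factor, was 71.7 and 63.0 FPKM against 22.3, 12.1, 15.9 and 28.5 FPKM, and Brd9, a chromatin remodelling subunit, was 69.6 and 63.4 FPKM against 26.9, 11.9, 14.3 and 31.6 FPKM. Hspa1b, an inducible heat shock protein with a near-identical neighbour, was 14.6 and 21.5 FPKM against 4.76, 0.50, 0.372 and 0.319 FPKM. Gm20708, Nkd2, S100a13 and Rpsa, and the mitochondrial genes mt-Co1, mt-Co2, mt-Atp6 and mt-Atp8, were also among these 15. Of the 16 immediate early and heat shock genes, 3 were lower and 1, Hspa1b, was higher, near the 24.9% and 6.45% of all genes.

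Genes kept low in mature beta cells were higher or overlapping. Of 14 measured, 3 were higher and 0 lower, beside 6.45% and 24.9% of all genes. The median difference was 0.84, 0.30 without WT replicate 1 and 1.52 without KO replicate 2, and the KO pair alone had -0.05. Hk1, a high-affinity hexokinase, was 2.31 and 2.07 FPKM against 0.664, 0.793, 1.85 and 0.361 FPKM, and Maf and Lmo4 were the others. Ldha, lactate dehydrogenase, was 45.4 and 13.4 FPKM against 18.1, 13.3, 20.8 and 4.29 FPKM and overlapped. Many of these genes are also expressed in stroma, whose part here was not tested. The summed level of all 16 listed, 257 and 88.2 FPKM against 49.9 to 127 FPKM, was highest in WT replicate 1. Of 7 measured progenitor and dedifferentiation genes, 1 was lower, 1 higher and 5 overlapped, beside 24.9% lower and 6.45% higher among all genes. The lower one was Aldh1a3, an enzyme of dedifferentiated beta cells, at 0.749 and 2.11 FPKM against 3.76, 20.7, 15.3 and 11.6 FPKM. Neurog3, the endocrine progenitor factor, was at most 4.99 FPKM. Of 16 measured cell cycle genes 1 was lower and 1 higher, and of 8 hypoxia genes 2 were lower, Bnip3 and Ndrg1, beside 24.9% lower and 6.45% higher among all genes.

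Since each genotype holds 1 library of either class in WT and in KO, the split can be followed within a genotype. WT replicate 1 minus WT replicate 2 and KO replicate 2 minus KO replicate 1 share no library. On the log2(FPKM + 1) scale, Ins1 differed by -7.28 in the WT pair and -8.16 in the KO pair. The sign for Ins1 was fixed in advance, since Ins1 made the classes. Chga differed by -3.90 and -3.47, Ero1lb by -5.58 and -4.71, and Vim by 1.91 and 1.55. Among all genes, 1345 were lower by at least 1 in both pairs, 232 higher in both, while 196 were higher in WT and lower in KO and 282 the reverse. Across the 13233 genes, which are not independent replicates, Pearson's r between the pairs was 0.269. Among the 4668 genes with a mean of at least 5 FPKM and no value of 0, 476 were lower in both, 102 higher in both, and r was 0.399. Over the lists, the granule genes had medians of -2.61 and -1.46 in the WT and KO pairs and the endoplasmic reticulum genes -1.33 and -2.30. The duct genes had 1.04 and -0.82 and the Schwann cell genes -0.81 and 1.60. The stellate cell and fibroblast genes had 1.85 and 0.15. Of these 24 genes, 13 were above 0 in both pairs and 1 below 0 in both, beside 2205 and 5381 of all 13233 genes.

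**Figure D4:**
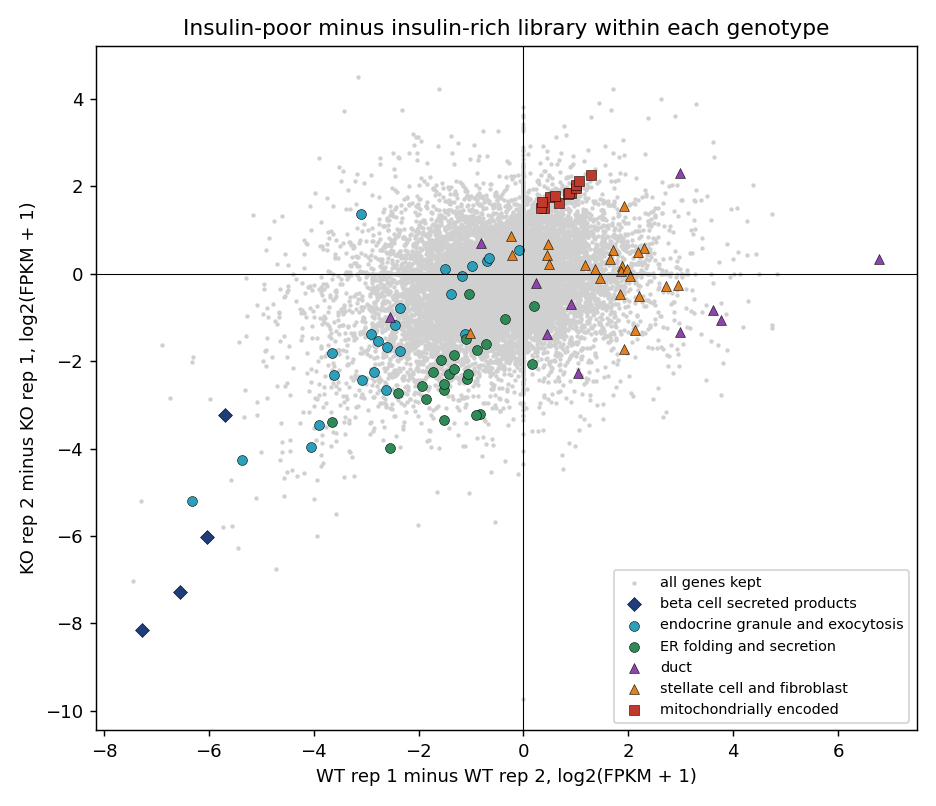
Difference between the insulin-poor and the insulin-rich library of WT (horizontal axis) and of KO (vertical axis), log2(FPKM + 1), for all genes (grey) and for 6 gene lists. The 4 beta cell products, which mark the classes, and most granule and endoplasmic reticulum genes lie at lower left. The 13 mitochondrially encoded genes lie at upper right, while several duct and stellate cell genes lie at lower right.

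The 2 insulin-poor libraries were not close copies of each other. Across genes on the log2 scale, WT replicate 1 correlated at r = 0.756 with KO replicate 2, the highest of its 5 values, which was the lowest of the 5 values of KO replicate 2. The latter reached r = 0.823 with KO+DNMT3A replicate 2, 0.811 with WT replicate 2, 0.765 with KO replicate 1 and 0.761 with KO+DNMT3A replicate 1. WT replicate 2 and KO replicate 1 reached r = 0.901. These correlations share the libraries' depths and describe the libraries only.

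The split ran through the labelled comparisons. In limma, fitted across all 13233 genes with adjustment over all of them, KO against WT gave 0 genes (0% of those tested) at an adjusted p under 0.05 and 240 at an unadjusted p under 0.05. KO+DNMT3A gave 0 genes (0%) against either other genotype, with 147 unadjusted against KO and 379 against WT. Ins1 had a log2 difference of -0.20 for KO against WT with a standard error of 2.88 (limma adjusted p = 1), and of 3.52 for KO+DNMT3A against KO and 3.32 for KO+DNMT3A against WT with the same standard error (limma adjusted p = 1 and 0.997). Vim differed by -0.15 for KO against WT with a standard error of 0.82 (limma adjusted p = 1). Without both insulin-poor libraries limma again called 0 genes in all 3 comparisons, where WT and KO keep 1 library each and are assumed to vary like KO+DNMT3A. KO minus WT depended on which pair was read. Over stellate cell genes its median was -1.47 between the insulin-poor libraries and 0.31 between the insulin-rich ones, so the sign changed. Over the other hormones it was 2.62 and 1.04, so the size changed and the sign did not. Dnmt3a was 2.9 and 2.5 FPKM in the insulin-poor libraries and 4.43, 3.19, 3.62 and 3.80 FPKM in the others. Its level was thus lower in both, with a 1.09-fold difference between the nearest libraries. The value in WT replicate 1 corresponds to about 7.0 fragments on its longest transcript, so this narrow difference rests on few fragments.

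**Figure D5:**
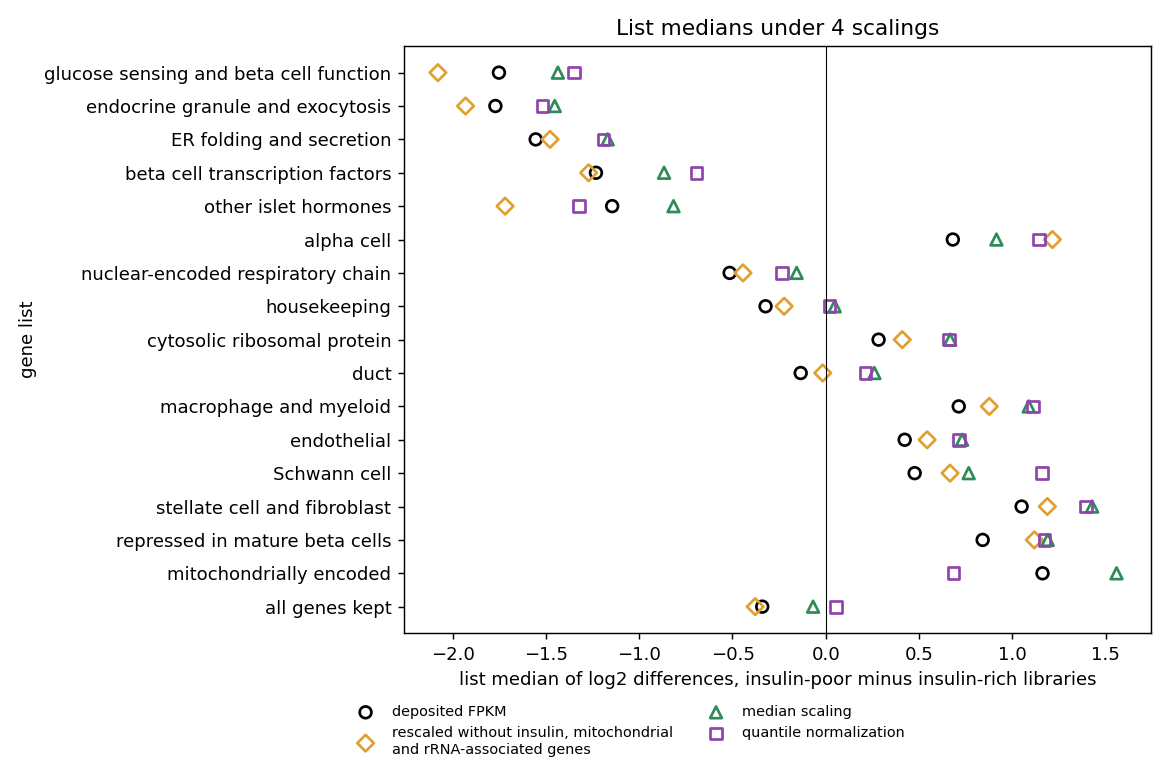
List medians of the difference between insulin-poor and insulin-rich libraries (horizontal axis, log2 scale) under the deposited FPKM and 3 other scalings, 1 row per list. The endoplasmic reticulum, granule and glucose sensing lists stay below 0 under all 4, while the housekeeping list moves from -0.32 to 0.05 and the duct list from -0.13 to 0.26.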

How the data were processed

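Poly-A RNA of isolated mouse islets was sequenced in 6 libraries, 2 per genotype, with TruSeq library preparation, per the labels' protocols. What the authors deposited is 1 table of FPKM for 34745 genes, per the file headers. The submitters' processing notes name mm10, StringTie 1.3.0, HISAT2 2.0.4 and edgeR without their roles. Of these identifiers 34344 matched GENCODE M21 on GRCm38, which gave symbols, types and positions; the files hold no counts. Depth was inferred from genes with 1 annotated transcript, whose FPKM come in steps of 1 fragment: within a tolerance of 0.05, 88.9% to 93.6% of the low values (20 fragments or fewer) were whole. Fragment numbers per gene assume the longest transcript.

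The 13233 genes reaching 1 FPKM in 2 or more libraries were taken as log2(FPKM + 1). Libraries were classed by Ins1 at 10000 FPKM; no test was made on this split, since it uses the same libraries. The labelled comparisons were fitted in limma 3.58.1 (R 4.3.3) over all 6 libraries, with trended, robust empirical Bayes, two-sided tests and Benjamini-Hochberg adjustment at 0.05. The procedure was run on simulated libraries with a smaller spread than these. That run does not show which differences could be found at the spread of these libraries. Tables and figures were made in Python 3.11.15 with pandas 2.3.3, numpy 2.4.6, matplotlib 3.10.9 and scipy 1.17.1. The classes, the 29 gene lists and the rule for named genes were chosen with earlier results of these data known. The rule names the 4 markers, the islet hormones, common housekeeping genes, up to 6 members per list with the widest gap between classes, up to 2 of the highest overlapping members, and the 15 protein-coding genes with the widest gap either way at a mean of at least 5 FPKM; other list members were named after their values were seen. Alternatives were other filters, a pseudocount of 0.1, 3 scalings, protein-coding genes only, WT and KO only, a replicate block, and each library left out. Some genes that the rule names are not reported here.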

Additional observations from a re-analysis of the deposited data

How the results depend on the processing

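The counts of genes by class moved with the settings, while the Ins1 split itself was kept the same. The directions of the glucose sensing, granule, endoplasmic reticulum, stellate cell and mitochondrial lists held under every alternative that kept their genes. That of the beta cell products is no check of the settings, since these genes mark the classes. With a filter of 5 FPKM, 1897 genes were lower and 439 higher, and 23 higher with a gap of at least 1; 23 also passed that gap higher among protein-coding genes only. With a pseudocount of 0.1 the gap was passed by 933 lower and 92 higher genes. Rescaling without insulin, mitochondrially encoded and rRNA-associated genes gave 94 higher with that gap. Median scaling gave 2061 lower, 1843 higher and 119 higher with the gap, and quantile normalization 1719, 1850, 134 and 260 lower with the gap. With only the WT and KO libraries, 1763 were higher, and 1059 lower and 160 higher passed the gap. Leaving out 1 library gave 3606 to 5788 lower and 934 to 2593 higher genes, 636 to 2190 lower and 48 to 466 higher with the gap. Without WT replicate 1 the first 2 counts were 5003 and 2157, and without KO replicate 2 they were 5788 and 2593; a single insulin-poor library then decides the call. The counts with the gap were then 976 and 136, and 2190 and 466. Without KO+DNMT3A replicate 2, 1288 genes were higher, and 847 lower and 84 higher passed the gap. Higher genes with the gap numbered 70 without KO+DNMT3A replicate 1 and 60 without WT replicate 2.

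List medians near 0 changed sign, and so did some further from 0. After median scaling they were 0.26 for duct, 0.048 for housekeeping and 0.20 for cell cycle genes, and after quantile normalization 0.21, 0.0205 and 0.42, with 0.18 for progenitor genes and 0.0553 for all genes. The stress response median was -0.0162 at a pseudocount of 0.1. With only WT and KO libraries it was -0.073, with 0.10 for duct and -0.0529 for macrophage genes. Leaving out 1 library gave ranges of -1.10 to 0.71 for duct, -0.42 to 0.97 for endothelial, -0.53 to 1.21 for Schwann cell, -0.26 to 0.17 for immediate early, -0.14 to 0.0879 for stress response and -0.25 to 0.10 for cell cycle genes. Among medians further from 0, that of the other islet hormones moved from -1.15 to 0.06 without WT replicate 1. That of the alpha cell genes moved from 0.68 to -0.82 with the filter of 5 FPKM, which left 3 of them. The cause was not tested.

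The labelled comparisons gave 0 genes under each setting run. With the replicate block limma called 0 genes in each of the 3, with 285, 154 and 391 at an unadjusted p under 0.05, and with a crossed block, added after seeing the data, 0, with 276, 178 and 515. Deviations of same-numbered libraries correlated at -0.269 for WT and KO, 0.101 for WT and KO+DNMT3A, and 0.318 for KO and KO+DNMT3A. The first is the r of 0.269 between the WT and KO pairs with its sign turned, and not a separate result. The numbers were not taken as pairs. Depth limits low genes most: in WT replicate 1 a value of 2.04 FPKM is 1 fragment on a 2 kb transcript, so members listed at 0 there could not be told from low levels.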

Other observations

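Several genes set the 2 insulin-poor libraries apart from each other, and were picked after their values were seen. Gabrp, a receptor subunit gene of duct epithelium, was 43.7 FPKM in WT replicate 1, listed at 0 in KO replicate 2, and 0.563, 0, 19.98 and 0.245 FPKM across WT replicate 2, KO replicate 1 and KO+DNMT3A replicates 1 and 2. Itm2a was 136 and 12.5 FPKM, against 5.30, 8.85, 17.6 and 1.54 FPKM. In the opposite direction Slc39a7, a zinc transporter gene, was 0 and 24.8 FPKM against 33.0, 41.4, 36.1 and 41.1 FPKM. Kat5, a histone acetyltransferase gene, was 0 and 27.4 FPKM against 22.5, 19.9, 16.1 and 33.9 FPKM. An unrelated split was seen for the antisense gene Gm15564, which had 852 FPKM in KO replicate 1, 809.9 FPKM for KO+DNMT3A replicate 2, and 0 in the other 4 libraries.

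The share of genes lower in both insulin-poor libraries grew with level. It was 19.6% among 4028 genes with a mean of at most 2 FPKM, 25.8% among 2333 genes between 5 and 10 FPKM, and 43.1% among 267 genes between 50 and 100 FPKM. Above 100 FPKM, 32.8% of 189 genes were lower and 21.2% higher. By transcript length the share lay between 28.0% and 32.5% in the 4 length bins of equal size, over genes with a mean of at least 5 FPKM. On chromosome X 32.8% of 402 genes were lower, against 19.1% to 29.5% on single autosomes. These shares are descriptions, and the part of depth in them was not tested.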
